A study of Mus musculus with 9 samples.

Results

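The 34 genes described here make cholesterol and fatty acids from acetyl-CoA, or control that supply, and were chosen by name from the 22068 genes counted in mouse embryonic fibroblasts (MEFs) that expressed a *CRX* gene from another mammal. They are 18 enzymes of cholesterol synthesis, 5 genes of the SREBP system that controls the pathway, the sterol carrier *Stard4*, 3 enzymes that supply acetyl-CoA or NADPH and 7 enzymes that build, lengthen or desaturate fatty acids. CRX is a homeobox transcription factor known for its role in photoreceptors, and MEFs are primary connective tissue cells cultured from mouse embryos. All cells were C57Bl/6 MEFs at passage 2 and were electroporated with a plasmid that carried a puromycin resistance gene. In the metatherian CRX group it also carried V5-tagged opossum *CRX*, in the eutherian CRX group V5-tagged human *CRX*, and in the control group no homeobox gene. All cells, control included, then spent 5 days in puromycin, so that the CRX groups were compared with cells that had been through the same selection. Each condition had 3 libraries, with 54145701 to 94699657 gene counts in a library. Nothing in the sample labels says that the 3 libraries came from separate cultures or animals, so that the p-values below measure the spread between these libraries, which may be technical. The sources do not name the promoter that drove the *CRX* genes.

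Cells make cholesterol from acetyl-CoA in a long chain of steps, first to squalene through the mevalonate pathway and then through ring closure and trimming of the sterol. When membranes hold little sterol, the membrane-bound factors SREBP2 (*Srebf2*) and SREBP1 (*Srebf1*) are escorted by SCAP (*Scap*) to the Golgi, cut there and sent to the nucleus, where they switch on the genes of sterol and fatty acid synthesis. INSIG1 (*Insig1*) and INSIG2 (*Insig2*) hold SCAP back when sterol is plentiful, and *Insig1* is itself an SREBP target. Fibroblasts in serum can also take up cholesterol, and then need less synthesis of their own.

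Promoters are shown first, because SREBP proteins act at sterol regulatory elements and E-boxes beside CCAAT and GC boxes, and CRX binds the core letters TAATCC. RefSeq promoters of build GRCm38.p6, from 250 bases before to 50 bases after each start site, were found for 27 of the 34 genes, 36 promoters in all. The motifs were searched by their letters on both strands. TCACNCCAC, a form of the sterol regulatory element, was in 1 of the 36 promoters (2.78%, against 1.24% of all 32851 promoters). The E-box CACGTG was in 6 promoters of 5 genes (16.7% against 7.15% of promoters), CCAAT in 23 (63.9% against 37.4%) and the GC box GGGCGG in 27 (75% against 35.7%). TAATCC was in 3 (8.33% against 7.06% of all promoters), so that its share lay close to that of promoters at large. A match describes letters in a window and does not show that a factor was bound there. Promoters of one gene can overlap, and the E-box of *Scap* is 1 site seen in overlapping promoters. The background promoters were not chosen by expression, so that the higher shares may not be particular to this pathway. The windows below hold the single sterol regulatory element, the E-boxes of *Insig1* and *Hsd17b7*, the CCAAT boxes of *Hsd17b7* and *Msmo1*, which had the smallest p between the CRX groups, and the 3 TAATCC matches. Matches in other promoters are counted above and are not printed. Each reads 5′ to 3′ on the strand of its gene, positions count back from the start site, and the capitals mark the motif or its reverse complement.
Hmgcs1, sterol regulatory element at -137, chr13:119690202-119690231: tacgtcaccgtcTCACCCCACttcccaggt
Insig1, E-box at -101, chr5:28071299-28071328: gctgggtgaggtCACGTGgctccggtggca
Hsd17b7, E-box at -143, chr1:169969331-169969360: ggacccttgtgtCACGTGgctccgcccctc
Hsd17b7, CCAAT box at -165, chr1:169969353-169969382: gcgactgcctggATTGGctataggaccctt
Hsd17b7, CCAAT box at -73, chr1:169969261-169969290: tgccgagtcgcgATTGGcgggcctaacgcg
Hsd17b7, CCAAT box at -12, chr1:169969206-169969229: ggccgagccttgATTGGtcgaggt
Msmo1, CCAAT box at -160, chr8:64733721-64733750: ccatccgcgcagCCAATgactggcgccgct
Msmo1, CCAAT box at -96, chr8:64733657-64733686: ccttagcacggaCCAATcactgcacggcga
Msmo1, CCAAT box at -55, chr8:64733616-64733645: gagtggggcggaCCAATtacgacaggcgag
Insig2, TAATCC at -159, chr1:121328166-121328195: aagagctgccttTAATCCgtattcagaaag
Mvk, TAATCC at -117, chr5:114444140-114444169: ttgattcccattGGATTActtgtagaaaga
Scap, TAATCC at -196, chr9:110333080-110333109: cagccccgcttcTAATCCtttggcactata
*Hmgcs1*, *Insig1*, *Mvk* and *Scap* are on the plus strand, and *Hsd17b7*, *Msmo1* and *Insig2* on the minus strand.

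Most of the pathway was expressed in these cells. Expression per exon length is given as FPKM, and comparisons between libraries as CPM, which is the count scaled to the size of the library with edgeR's TMM factors. Of the 34 genes, 33 passed the low-value filter, which asked for a mean FPKM over 2 in some condition. *Idi1*, the isomerase of the mevalonate pathway, did not pass and was not tested. Its level was between 0.696 and 1.85 CPM. The 33 other genes had between 209 and 52059 counts in a library. On the FPKM scale the highest mean level was that of *Scd2* (93.2), a stearoyl-CoA desaturase, followed by *Acly* (69.7), which makes cytosolic acetyl-CoA from citrate, and by the sterol demethylase gene *Msmo1* (45.2). The lowest levels among genes tested were those of *Acaca* (2.42), the first committed enzyme of fatty acid synthesis, and *Tm7sf2* (3.13), a sterol reductase.

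The libraries did not all behave as replicates, and this bears on every comparison below. Control replicate 3 lay above control replicates 1 and 2 in 31 of the 33 genes, against 42.8% of all genes. It was the highest of all 9 libraries for 18 genes. Eutherian CRX replicate 3 was the lowest of all 9 libraries for 19. The fibroblast collagen gene *Col1a1* also set eutherian and metatherian CRX replicates 3 apart, at 1107 and 1050 CPM against 4775 to 10117 CPM in the other 7 libraries. Over all 10 listed fibroblast markers the split was smaller in the metatherian group. Their median log2 CPM minus the mean of the 9 libraries was 0.31, 0.28 and -0.63 in eutherian replicates 1, 2 and 3. In metatherian replicates 1, 2 and 3 it was -0.22, -0.30 and -0.60. Counts on the mouse *Crx* row were 0 in the 3 controls and 627, 995 and 313 with eutherian CRX. They were 4, 0 and 0 with metatherian CRX, whose opossum sequence this row cannot be taken to measure. Human *CRX* reads may also be counted only in part on this mouse row. The lowest of the eutherian counts was in replicate 3, also as CPM (7.90, 14.9 and 4.19 in replicates 1, 2 and 3). The paper states that different levels of ectopic expression were not the reason for the differing numbers of affected genes. A link between these counts and the levels in replicate 3 was not tested.

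**Figure D1:**
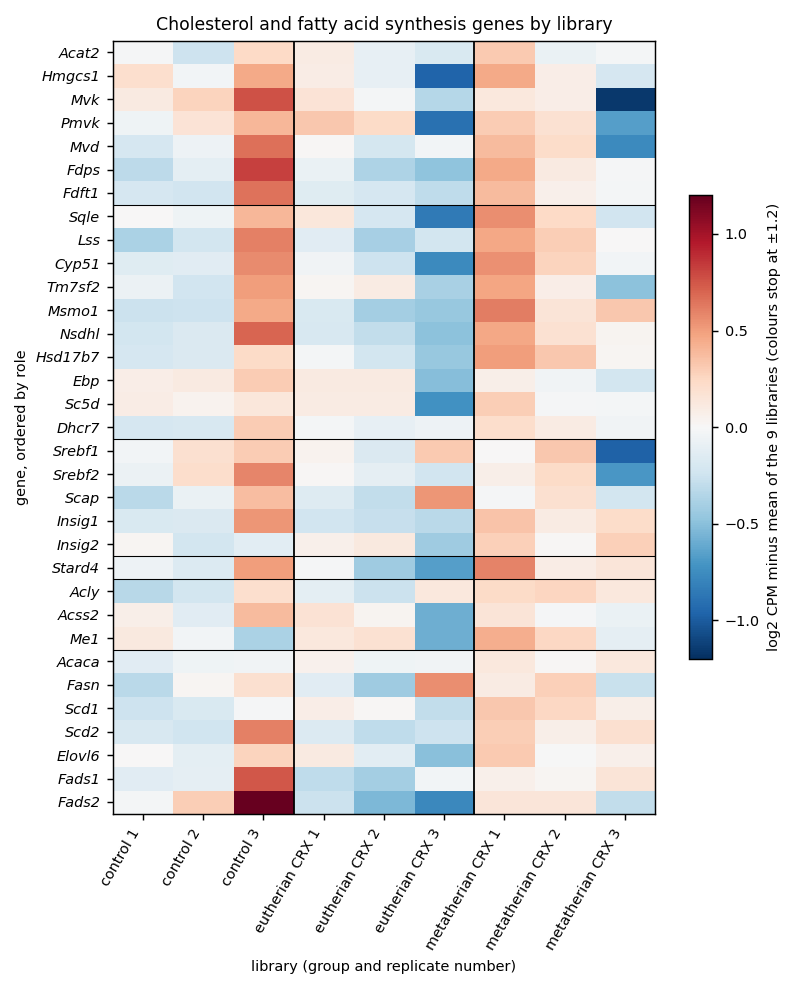
Level of the 33 tested genes (rows, ordered by role, with lines between roles) in the 9 libraries (columns), as log2 CPM minus the mean of the 9 libraries, red above and blue below that mean. Control replicate 3 is the highest library for 18 genes and eutherian CRX replicate 3 the lowest for 19, while metatherian CRX replicate 1 lies above the mean for 32.

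With all 9 libraries, 0 of the 33 genes had an adjusted p under 0.05 in any comparison, by the quasi-likelihood test of edgeR, blocked by replicate number and adjusted over 10100 genes after Benjamini and Hochberg. The shares of all genes called were 0.0297% for metatherian CRX against control, 0.604% for eutherian CRX against control and 0.0% for metatherian against eutherian CRX. The smallest adjusted p among the 33 genes was 0.22, 0.45 and 0.31 in these comparisons (edgeR). The Wald test of DESeq2 called 1 of the 33, *Msmo1*, between the CRX groups, against 3.14% of all genes. It called 0 of the 33 in the comparisons of metatherian and of eutherian CRX with control, against 9.94% and 3.30% of all genes. With metatherian CRX, the median log2 fold change over the 33 genes was 0.28 against eutherian CRX, 30 of 33 above 0, and 0.058 against control, 21 of 33 above 0. With eutherian CRX against control the median was -0.26 and 7 of 33 were above 0. Both medians against control changed sign when single libraries were left out. Without control replicate 3 the median was 0.050 with eutherian CRX, and with metatherian CRX it was -0.13, -0.03 and -0.05 without control replicate 1, control replicate 2 and metatherian CRX replicate 1. The medians of all genes lay between -0.008 and 0.001 with all 9 libraries, and between -0.014 and 0.015 in the fits just named.

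The unadjusted calls gave the same picture gene by gene. Between the CRX groups, 5 genes were higher with metatherian CRX at an unadjusted p under 0.05 (*Msmo1*, *Hsd17b7*, *Stard4*, *Insig1* and *Me1*), against 7.41% of all genes, and 0 were lower, against 4.13%. Upper-quartile scaling changed these shares of all genes to 5.91% and 5.68%, and left 4 genes of the pathway higher and 0 lower. In 12 of the 33 genes all 3 metatherian libraries lay above all 3 eutherian libraries, against 6.23% of all genes, and in 0 they lay below, against 5.3%. For metatherian CRX against control, 2 genes were higher (*Scd1* and *Me1*, against 9.04% of all genes) and 0 lower (against 10.5%). Libraries did not overlap in 2 genes that were higher (*Acaca* and *Scd1*, against 11.0%) and in 1 that was lower (*Ebp*, against 12.3%). For eutherian CRX against control, 0 genes were higher (against 2.23%) and 2 lower (*Fads1* and *Fads2*, against 6.34%). There, 0 genes had eutherian libraries wholly above the controls (against 6.21%) and 2 wholly below (*Insig1* and *Fads2*, against 7.8%). Set against these shares, the counts in the comparisons with control were no larger than the background, while those of genes higher with metatherian than with eutherian CRX were above it. For the count at an unadjusted p, this did not hold in every fit. Without eutherian CRX replicate 3 it was 1 of 33 beside 10.0% of all genes, and without metatherian CRX replicate 1 it was 0 beside 2.58%. Genes of one pathway are not independent of each other.

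**Figure D2:**
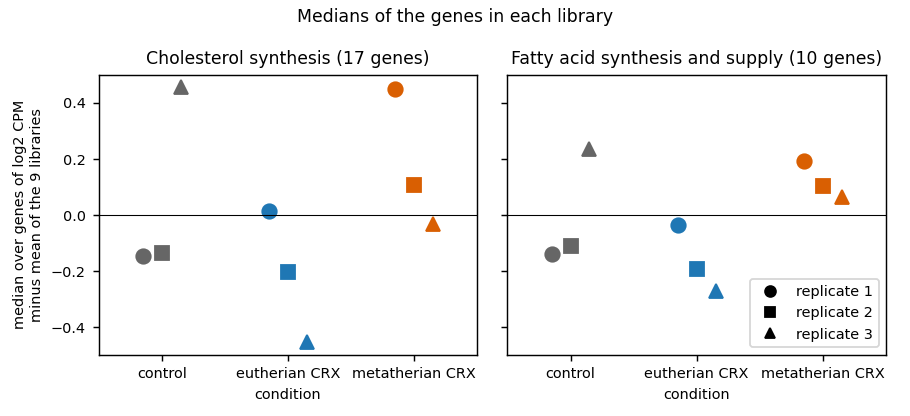
Median over genes of log2 CPM minus the mean of the 9 libraries (vertical axis) in each library, for the 17 tested genes of cholesterol synthesis (left) and the 10 genes of fatty acid synthesis and its supply (right), by condition, with a symbol for each replicate number. Control replicate 3 stands at 0.46 on the left, beside -0.15 and -0.13 in control replicates 1 and 2.

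Libraries that carry the same number can be set side by side. For metatherian CRX against control, the median difference of the 33 genes in log2 CPM was 0.41 in number 1 and 0.27 in number 2, with 32 and 29 genes higher. In number 3 it was -0.52, and 4 genes were higher. Of the 29 genes that were higher with metatherian CRX in numbers 1 and 2, 4 were higher in number 3 as well. For eutherian CRX against control the medians were 0.10, -0.07 and -0.82, with 29, 11 and 3 genes higher. Between the CRX groups the medians were 0.35, 0.37 and 0.37 in the 3 numbers, with 28, 27 and 26 genes higher with metatherian CRX. The medians of all genes in these differences were -0.007, -0.003 and 0.071, and in number 3, 56.5% of all genes were higher. In 21 genes the metatherian library was the higher in all 3 numbers, against 18.6% of all genes. The direction of the median against control thus differed between numbers, turning in number 3 with metatherian CRX and in numbers 2 and 3 with eutherian CRX, and between the CRX groups it was the same in the 3 numbers. Control libraries enter neither side of the last comparison.

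A fit without the 3 libraries numbered 3, which leaves 2 libraries per condition, gave other calls. In it 14 of the 33 genes were called higher with metatherian CRX than in control (42.4%, against 11.1% of all genes) and 0 lower (against 11.2%). Their adjusted p lay between 0.0041 and 0.044 in edgeR, and between 0.22 and 0.96 with all 9 libraries. Likewise 14 (42.4%) were called higher with metatherian than with eutherian CRX (against 12.8% of all genes) and 0 lower (against 9.78%). Their adjusted p in edgeR lay between 0.0066 and 0.048, and between 0.31 and 0.63 with all 9 libraries. Over all alternatives the adjusted p of the called genes reached 0.999 in both comparisons. For eutherian CRX against control, 0 were called higher (against 0.515% of all genes) and 0 lower (against 2.91%), and the median log2 fold change over the 33 genes was 0.014. In contrast, fits without the libraries numbered 1 or without those numbered 2 called 0 of the 33 genes, and 0.0% of all genes, in each comparison. The calls thus rest on the choice of numbers 1 and 2, which was made with earlier results of these data known. The 2 comparisons share the metatherian libraries and are not independent of each other.

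**Figure D3:**
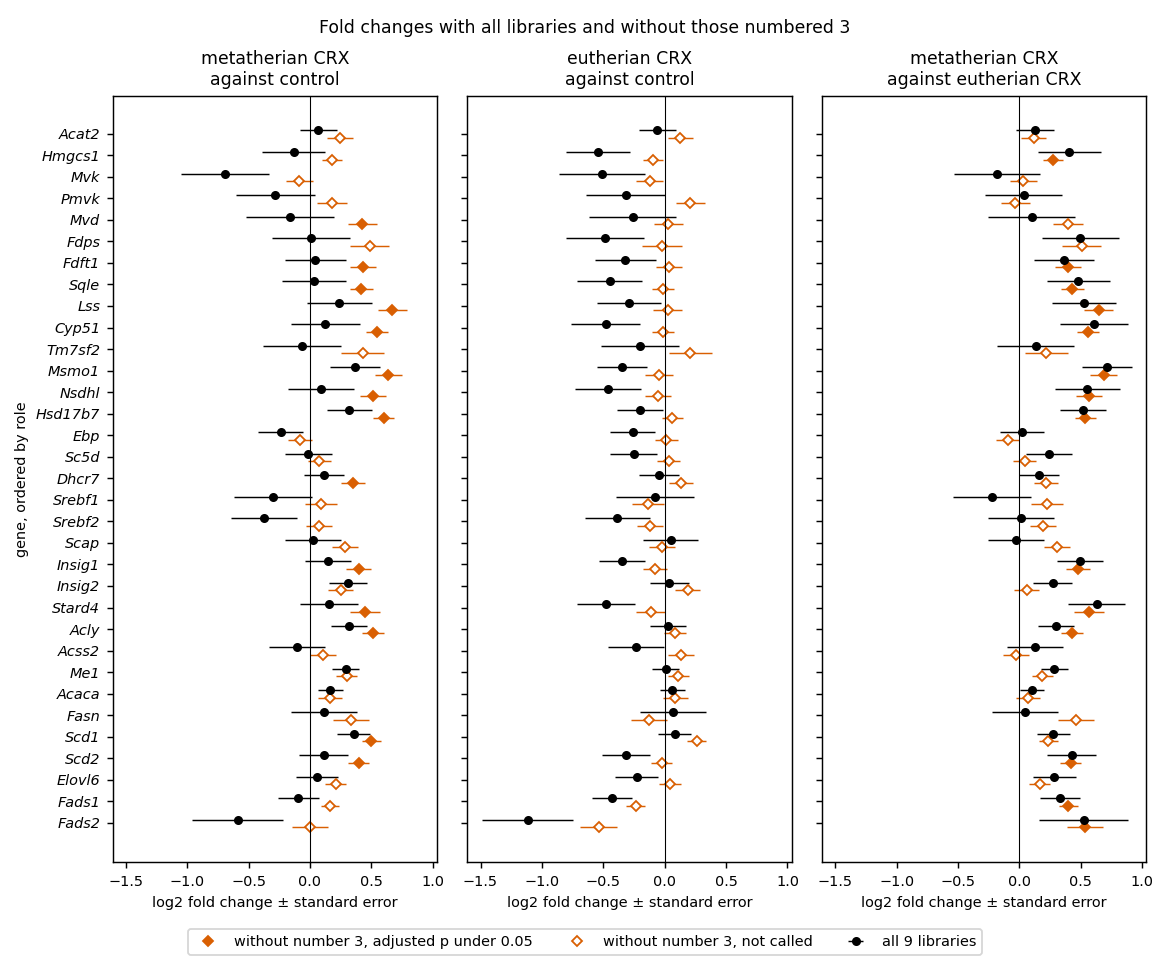
Log2 fold change with its standard error (horizontal axis) of the 33 genes (vertical axis) in the 3 comparisons, with all 9 libraries (black) and without the libraries numbered 3 (orange, filled where the adjusted p was under 0.05). Without number 3, 14 genes are filled in the left panel, 0 in the middle and 14 in the right.

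Of the 5 genes of the SREBP system, 3 had a log2 fold change above 0 for metatherian CRX against control with all 9 libraries (median 0.024). Within numbers 1 and 2 the metatherian library was above the control for all 5 genes, and within number 3 for 1 of 5. *Srebf2*, which encodes SREBP2, the factor of the cholesterol genes, was at 125, 152 and 197 CPM in control, 133, 122 and 112 CPM with eutherian CRX and 138, 154 and 80.9 CPM with metatherian CRX. The groups overlapped, control replicate 3 was the highest and metatherian replicate 3 the lowest. Its log2 fold change was -0.37 ± 0.27 (SE) for metatherian CRX against control and -0.38 ± 0.27 for eutherian CRX against control. *Srebf1*, which encodes SREBP1, the factor of the fatty acid genes, was at 65.7, 76.7 and 83.4 CPM in control, 69.1, 59.8 and 83.5 CPM with eutherian CRX and 67.5, 84.4 and 34.4 CPM with metatherian CRX. Metatherian replicate 3 stood well below the other 8 libraries, which overlapped. *Scap*, the escort, was at 76.1, 90.3 and 124 CPM in control, 85.4, 77.8 and 138 CPM with eutherian CRX and 94.3, 109 and 81.9 CPM with metatherian CRX. Here replicate 3 was the highest of the control and of the eutherian libraries and the lowest of the metatherian ones. None of the 3 genes had an unadjusted p under 0.05 in any comparison with all 9 libraries.

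*Insig1* and *Insig2* encode the factors that retain SCAP. *Insig1* was at 26.7, 26.8 and 43.8 CPM in control, 25.7, 25.0 and 24.2 CPM with eutherian CRX and 38.3, 32.4 and 35.2 CPM with metatherian CRX (chr5:28071412-28078662, plus strand). The eutherian libraries lay closely together and below all others, and control replicate 3 was the highest of the 9. Metatherian CRX exceeded eutherian CRX by 0.50 ± 0.19 (log2, SE, n = 3 per group), with an adjusted p of 0.39 in edgeR. *Insig2* was at 53.9, 45.4 and 48.4 CPM in control, 55.3, 57.5 and 39.4 CPM with eutherian CRX and 64.5, 53.7 and 64.6 CPM with metatherian CRX. Its control and metatherian libraries nearly separated, with metatherian replicate 2 just under control replicate 1, while the eutherian libraries overlapped both. Its log2 fold change against control was 0.31 ± 0.16 (adjusted p = 0.33, edgeR). Without the libraries numbered 3, *Insig1* was called in both comparisons with metatherian CRX, and *Srebf1*, *Srebf2*, *Scap* and *Insig2* in none. In that fit all 5 genes were above 0 in both of these comparisons, with medians of 0.25 against control and 0.23 against eutherian CRX. Between the CRX groups, all 9 libraries gave a median of 0.012 with 3 of 5 above 0, and number 3 alone a median difference of -0.47 with 2 of 5 higher.

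The first stage of cholesterol synthesis runs from acetyl-CoA to squalene. *Acat2* joins acetyl-CoA units, *Hmgcs1* makes HMG-CoA, *Mvk*, *Pmvk* and *Mvd* carry mevalonate on to isopentenyl diphosphate, *Fdps* makes farnesyl diphosphate and *Fdft1* squalene. Their median log2 fold change was 0.13 for metatherian against eutherian CRX, 6 of 7 above 0. It was -0.13 for metatherian CRX against control, 3 of 7 above 0, and -0.32 for eutherian CRX against control, 0 of 7 above 0. Both directions against control turned without the libraries numbered 3, with medians of 0.24 (6 of 7 above 0) and 0.030 (4 of 7). *Hmgcs1*, whose promoter holds the sterol regulatory element printed above, was at 135, 115 and 161 CPM in control, 125, 109 and 60.5 CPM with eutherian CRX and 160, 124 and 102 CPM with metatherian CRX. All groups overlapped, and eutherian replicate 3 was the lowest. Its log2 fold change was 0.41 ± 0.26 between the CRX groups (adjusted p = 0.59, edgeR).

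*Mvk*, mevalonate kinase, was the one gene of this stage below 0 between the CRX groups (-0.18 ± 0.35). It was at 20.6, 23.0 and 32.5 CPM in control, 21.4, 18.8 and 15.1 CPM with eutherian CRX and 20.9, 20.2 and 8.58 CPM with metatherian CRX. Metatherian replicate 3 was far below the other libraries. The log2 fold change for metatherian CRX against control was -0.69 ± 0.36 with all libraries and -0.09 ± 0.11 without those numbered 3. *Pmvk* was likewise lowest in eutherian and metatherian replicates 3, at 7.39 and 8.64 CPM, and *Mvd* in metatherian replicate 3, at 10.5 CPM. *Fdps* and *Fdft1* lay higher in all 3 metatherian than in all 3 eutherian libraries, by 0.50 ± 0.31 and 0.37 ± 0.25 on the log2 scale. Of the *Fdft1* exon bases, 774 (14.8%) overlap *Ctsb* on the opposite strand. The strand setting of the counting is not given in the sources used here, and reads from these bases cannot be told apart. *Acat2* differed little, with log2 fold changes between -0.06 and 0.13. Without the libraries numbered 3, *Mvd* and *Fdft1* were called against control, and *Hmgcs1* and *Fdft1* between the CRX groups.

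The second stage, from squalene to cholesterol, had the highest median difference between the CRX groups among the groups of more than 1 gene. It holds the squalene epoxidase *Sqle*, the cyclase *Lss* that closes the sterol rings, the demethylation enzymes *Cyp51*, *Msmo1*, *Nsdhl* and *Hsd17b7*, and the isomerase and late reductases or desaturase *Ebp*, *Sc5d*, *Tm7sf2* and *Dhcr7*. All 10 had a log2 fold change above 0 for metatherian against eutherian CRX, with a median of 0.50. All 10 were below 0 for eutherian CRX against control (median -0.28), and 7 of 10 were above 0 for metatherian CRX against control (median 0.10). For eutherian CRX this direction rested on the libraries numbered 3. Within numbers 1, 2 and 3, the eutherian library was above the control for 10, 4 and 0 of the 10 genes, and the fit without number 3 gave medians of 0.020 with eutherian CRX (6 of 10 above 0) and 0.47 with metatherian CRX (9 of 10). In 5 of the 10 the metatherian libraries lay wholly above the eutherian ones, against 6.23% of all genes. These were *Lss*, *Cyp51*, *Msmo1*, *Nsdhl* and *Hsd17b7*, which take the epoxide of squalene through ring closure and the removal of methyl groups.

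*Msmo1*, the sterol C4-methyl oxidase (chr8:64718145-64733578, minus strand, the span of its exons in the count table), had the smallest p of the pathway between the CRX groups. It was at 66.6, 67.0 and 109 CPM in control, 70.1, 60.3 and 58.4 CPM with eutherian CRX and 122, 89.0 and 99.9 CPM with metatherian CRX. The metatherian libraries all lay above the eutherian ones, while control replicate 3 fell among the metatherian values. The log2 fold change was 0.71 ± 0.20 between the CRX groups, with an unadjusted p of 0.0102 and an adjusted p of 0.31 in edgeR. With DESeq2 the adjusted p was 0.045, and over all alternatives the adjusted p ranged from 0.0074 to 0.999. Leaving out any one library kept this log2 fold change between 0.56 and 0.82. Against control it was 0.37 ± 0.20 (adjusted p = 0.37, edgeR).

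*Hsd17b7* (chr1:169949535-169969238, minus strand), which completes the removal of the C4 methyl groups, followed the same order. It was at 61.4, 62.6 and 82.8 CPM in control, 69.7, 60.6 and 51.7 CPM with eutherian CRX and 100.4, 88.7 and 71.9 CPM with metatherian CRX. All metatherian libraries exceeded all eutherian ones, by 0.52 ± 0.19 (log2, adjusted p = 0.36, edgeR), and control replicate 3 again lay among the metatherian values. *Cyp51*, the lanosterol demethylase, was at 102, 103 and 167 CPM in control, 110, 95.1 and 66.6 CPM with eutherian CRX and 165, 137 and 111 CPM with metatherian CRX. Its metatherian libraries lay just above the eutherian ones, the gap between 110 and 111 CPM being small beside the spread. *Nsdhl*, on chromosome X, was at 27.0, 27.9 and 50.9 CPM in control, 27.6, 25.6 and 22.4 CPM with eutherian CRX and 43.3, 35.5 and 32.0 CPM with metatherian CRX. Control replicates 1 and 2 sat with the eutherian libraries and control replicate 3 above all others.

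**Figure D4:**
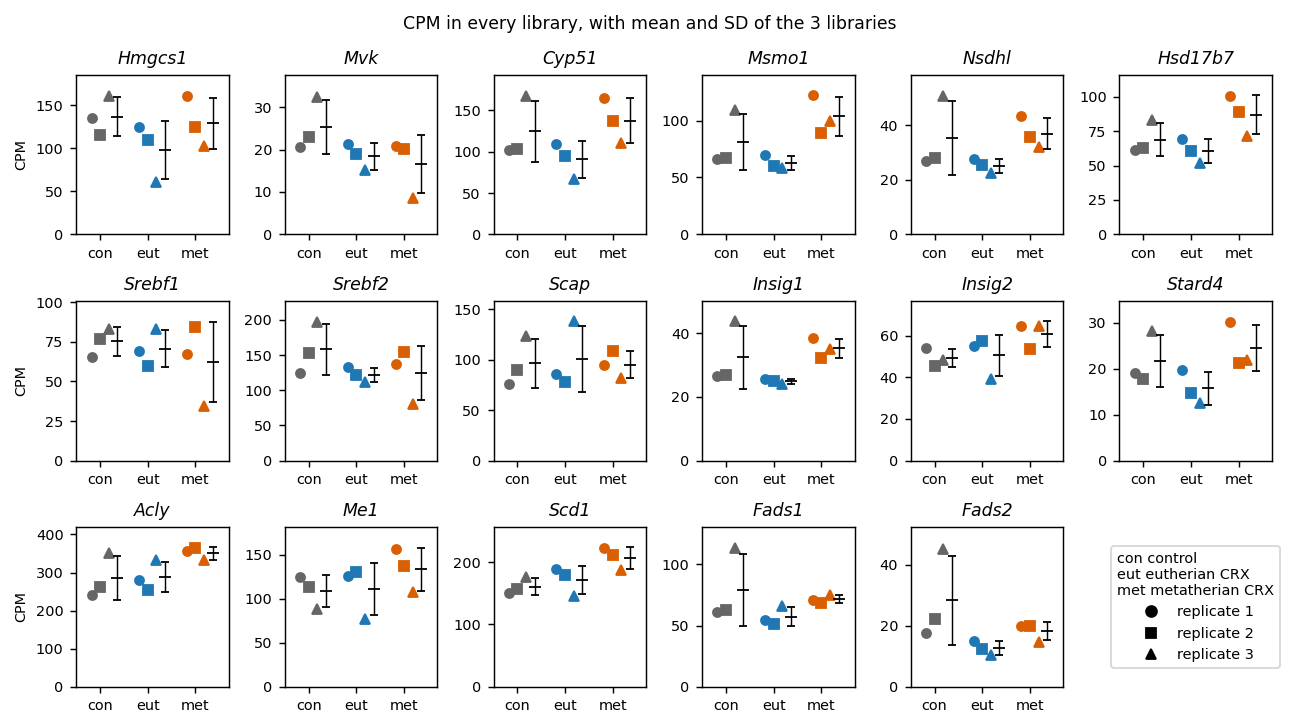
CPM (vertical axes, from 0) of 17 genes in the 9 libraries by condition, with a symbol for each replicate number and, beside each group, the mean and SD of its 3 libraries. Control replicate 3 is above control replicates 1 and 2 for most genes, and the metatherian CRX libraries of *Msmo1*, *Nsdhl*, *Hsd17b7*, *Insig1* and *Stard4* all lie above the eutherian CRX ones.

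*Lss* and *Sqle* differed by 0.53 ± 0.26 and 0.48 ± 0.26 on the log2 scale between the CRX groups. For the late enzymes the log2 fold changes were 0.02 ± 0.18 for *Ebp*, 0.13 ± 0.32 for *Tm7sf2*, 0.16 ± 0.16 for *Dhcr7* and 0.24 ± 0.19 for *Sc5d*. *Ebp* was the only one of the 33 genes whose metatherian libraries all lay below the controls, at 16.3 to 19.9 CPM against 20.0 to 23.4 CPM. Without the libraries numbered 3, *Sqle*, *Lss*, *Cyp51*, *Msmo1*, *Nsdhl* and *Hsd17b7* were called higher with metatherian CRX in both comparisons, and *Dhcr7* against control alone. Their log2 fold changes against control in that fit were 0.42 ± 0.09 for *Sqle*, 0.67 ± 0.12 for *Lss*, 0.54 ± 0.09 for *Cyp51*, 0.64 ± 0.11 for *Msmo1*, 0.51 ± 0.11 for *Nsdhl* and 0.60 ± 0.09 for *Hsd17b7*. *Stard4*, which carries sterol between membranes and is itself an SREBP target, went with this stage. It was at 19.1, 17.8 and 28.3 CPM in control, 19.8, 14.8 and 12.6 CPM with eutherian CRX and 30.2, 21.2 and 22.0 CPM with metatherian CRX. The CRX groups did not overlap, and they differed by 0.63 ± 0.23 (log2, adjusted p = 0.38, edgeR).

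The 7 genes of fatty acid synthesis, elongation and desaturation were also all above 0 between the CRX groups, with a median log2 fold change of 0.29 and a range from 0.047 to 0.52. In the fit without the libraries numbered 3 this median was 0.398, beside 0.396 for the 17 genes of cholesterol synthesis. Against control, the median with all 9 libraries was 0.11 with metatherian CRX, 5 of 7 above 0, and -0.23 with eutherian CRX, 3 of 7 above 0. Without number 3 these were 0.21 (6 of 7) and -0.024 (3 of 7). *Scd1*, the stearoyl-CoA desaturase that makes oleate (chr19:44394450-44407709, minus strand), was at 150, 157 and 176 CPM in control, 189, 180 and 146 CPM with eutherian CRX and 222, 212 and 188 CPM with metatherian CRX. All metatherian libraries exceeded all controls, and eutherian replicate 3 was the lowest of the 9. Its log2 fold change against control was 0.36 ± 0.13 (unadjusted p = 0.032, adjusted p = 0.22, edgeR), and 0.50 ± 0.08 without the libraries numbered 3. *Scd2* was at 421 to 754 CPM in control, 402 to 442 CPM with eutherian CRX and 522 to 610 CPM with metatherian CRX. Control replicate 3 alone held the value of 754 CPM, well above all other libraries.

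The desaturases of polyunsaturated fatty acids, *Fads1* and *Fads2*, lie near each other on chromosome 19 (chr19:10182888-10196874 on the plus strand and chr19:10064164-10101503 on the minus strand) and stood lowest with eutherian CRX. *Fads2* was at 17.8, 22.2 and 45.1 CPM in control, 15.1, 12.5 and 10.6 CPM with eutherian CRX and 20.0, 20.0 and 14.8 CPM with metatherian CRX. The eutherian libraries were all below the controls, and control replicate 3 was at more than 2 times the level of any other library. Its log2 fold change for eutherian CRX against control was -1.11 ± 0.37 (unadjusted p = 0.0205, adjusted p = 0.45, edgeR), the lowest of the 33 genes, and -0.54 ± 0.15 without the libraries numbered 3. *Fads1* was at 61.5, 63.0 and 114 CPM in control, 54.8, 51.1 and 66.3 CPM with eutherian CRX and 70.7, 68.8 and 75.2 CPM with metatherian CRX. Eutherian replicate 3 overlapped the controls, and the log2 fold change was -0.43 ± 0.16 (adjusted p = 0.54, edgeR). Between the CRX groups *Fads1* and *Fads2* were called in the fit without the libraries numbered 3 and not with all 9.

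*Acaca*, *Fasn* and *Elovl6* make and lengthen saturated chains. *Acaca* varied least of the 33 genes, by 1.2-fold between its highest and lowest library, and its metatherian libraries lay above the controls (24.1 to 26.2 CPM against 21.7 to 23.3 CPM). *Fasn*, fatty acid synthase, ranged from 185 to 367 CPM within the eutherian group alone, with the highest value in replicate 3. *Elovl6* had log2 fold changes between -0.23 and 0.29. None of these 3 genes was called in any comparison, with or without the libraries numbered 3.

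Among the supply enzymes, *Acly* and *Me1* stood highest with metatherian CRX. *Acly* was at 242, 262 and 351 CPM in control, 280, 254 and 332 CPM with eutherian CRX and 357, 364 and 332 CPM with metatherian CRX. The metatherian libraries lay above the others except control replicate 3, with metatherian and eutherian replicates 3 level, and its log2 fold change against control was 0.32 ± 0.15 (adjusted p = 0.29, edgeR). *Me1*, malic enzyme, which makes NADPH, was at 125, 113 and 88.8 CPM in control, 126, 131 and 76.8 CPM with eutherian CRX and 156, 137 and 107 CPM with metatherian CRX. Replicate 3 was the lowest in each condition, and within each number the metatherian library was higher than the control by 0.32, 0.28 and 0.27 on the log2 scale. The fitted log2 fold change was 0.29 ± 0.11 (unadjusted p = 0.032, adjusted p = 0.22, edgeR). *Me1* was thereby the gene whose difference from control was the most alike in the 3 numbers, which was seen after its values were known. *Acss2*, which makes acetyl-CoA from acetate, had log2 fold changes between -0.23 and 0.12.

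Another 54 genes of the same pathways, listed by function but with earlier results of these data known, were followed beside the 33, and 47 passed the filter. With all 9 libraries 0 of the 47 were called. At an unadjusted p under 0.05, 6 were higher and 3 lower with metatherian CRX than in control (against 9.04% and 10.5% of all genes). With eutherian CRX against control 0 were higher and 2 lower (against 2.23% and 6.34%), and 4 were higher and 0 lower with metatherian than with eutherian CRX (against 7.41% and 4.13%). Their median log2 fold changes were -0.004, -0.04 and 0.07 in these comparisons. *Acsl4*, which activates polyunsaturated fatty acids, was at 74.9, 73.2 and 85.8 CPM in control, 75.9, 75.9 and 105 CPM with eutherian CRX and 115, 100.4 and 140 CPM with metatherian CRX. All metatherian libraries exceeded all controls, by 0.59 ± 0.10 (log2, adjusted p = 0.072, edgeR), the smallest adjusted p of the 47. *Hsd17b12*, an enzyme of fatty acid elongation, and *G6pdx* and *Me2*, which make NADPH, also had metatherian libraries wholly above the controls, with log2 fold changes of 0.35 ± 0.09, 0.32 ± 0.08 and 0.32 ± 0.11. Their adjusted p in edgeR lay between 0.12 and 0.18. In all, the metatherian libraries lay wholly above the controls in 7 of the 47 genes and wholly below in 6, against 11.0% and 12.3% of all genes. In the fit without the libraries numbered 3, 9 of the 47 were called higher and 4 lower with metatherian CRX than in control (against 11.1% and 11.2% of all genes), 0 higher and 1 lower with eutherian CRX than in control (against 0.515% and 2.91%), and 10 higher and 4 lower between the CRX groups (against 12.8% and 9.78%).

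Other cell types and growth moved with the groups as follows, and their part in the values above was not tested. Because these are bulk libraries, fewer cells of a type and less RNA per cell cannot be told apart. The fibroblast markers were abundant, with a summed level of 24865 to 33266 CPM in control, 7810 to 23539 CPM with eutherian CRX and 8443 to 18219 CPM with metatherian CRX, and 10 of 10 had counts. At an unadjusted p under 0.05, 8 of the 10 were lower with metatherian CRX and 4 with eutherian CRX than in control, against 10.5% and 6.34% of all genes. In the other direction, 1 was higher with metatherian CRX and 0 with eutherian CRX, against 9.04% and 2.23%. Of 9 tested proliferation genes, all 9 had a log2 fold change below 0 with either CRX against control. At an unadjusted p under 0.05, 9 were lower with metatherian CRX (against 10.5% of all genes) and 8 with eutherian CRX (against 6.34%), 3 of the latter called at an adjusted p under 0.05 in edgeR (against 0.604% called in either direction). These 3 calls were lost without the replicate block, where 0.0% of all genes were called. Between the CRX groups 6 of 9 were above 0, with a median of 0.53, and an unadjusted p under 0.05 was reached by 4 that were higher with metatherian CRX and 0 that were lower (against 7.41% and 4.13%). All 3 metatherian libraries lay above all eutherian ones in 0 of the 9 and below them in 2, against 6.23% and 5.3%. Their summed level was 246 to 330 CPM in control, 125 to 163 CPM with eutherian CRX and 144 to 210 CPM with metatherian CRX, and the median of their log2 CPM minus the mean of the 9 libraries was highest in control replicate 3 (1.11). Of 10 listed markers of adipocytes, which make much fatty acid, 4 passed the filter. *Fabp4* and *Lpl* reached 64.9 and 40.0 CPM, while *Adipoq*, *Plin1*, *Cidec* and *Lep* were at 0 to 0.0630 CPM. The presence of adipocytes is therefore not shown. The summed adipocyte list was 71.6 to 131 CPM in control, 62.9 to 115 CPM with eutherian CRX and 64.3 to 74.7 CPM with metatherian CRX. Macrophage and leukocyte markers summed to 15.1 to 48.2, 8.76 to 27.1 and 6.85 to 14.0 CPM in the same order, with *Adgre1* at 0 to 3.14 CPM. Smooth muscle markers, which fibroblasts also express, summed to 2388 to 4214, 311 to 1712 and 568 to 1119 CPM, endothelial markers to 22.0 to 31.4, 20.1 to 29.2 and 19.4 to 22.4 CPM, and epithelial markers to 0.873 to 3.64, 0.492 to 12.7 and 1.87 to 9.15 CPM. Of the epithelial markers 1 was tested, and it was highest in replicate 3 of each condition. There its log2 CPM minus the mean of the 9 libraries was 1.51, 3.48 and 2.95 in the same order.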

How the data were processed

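The 9 RNA-seq libraries, 3 per condition, came from MEFs. The authors aligned paired reads with STAR to mm10 (GRCm38), ran featureCounts, and deposited its gene counts for single libraries, not normalized and not pooled. The annotation release and strand setting are not given in the sources used here. Genes were matched by symbol, and all 34 were found. In R 4.3.3, counts were analysed with limma 3.58.1 and edgeR 4.0.16 (TMM, factors 0.960 to 1.11). Of 14599 genes that passed filterByExpr, 10100 also had a mean FPKM (from merged exon lengths) over 2 in some condition and were tested. All 9 libraries entered 1 quasi-likelihood fit with the replicate number as a block, since the study states that samples were prepared in pairs, with Benjamini-Hochberg adjustment and calls at 0.05. A standard error was obtained from the F statistic, as the size of the log2 fold change over the root of F. Log2 CPM used a prior count of 2.

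Deviations of libraries with the same number from their group means correlated above 0.1 in 8 of 9 pairs, the lowest at 0.0034 and the highest at 0.75, and 5 of 18 pairs with different numbers did so as well. The numbers are therefore not shown to mark pairs. The labels give 48 h of recovery after puromycin, whereas the methods place it before.

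Values in every library are given for the SREBP system and for the 6 genes with the smallest p in each comparison, and for genes called in any comparison with all libraries. The genes, lists and alternatives were chosen with earlier results of these data known. Alternatives were no block, relative-log-expression (RLE) and upper-quartile scaling, DESeq2 1.42.0, 2 other filters, only the 6 libraries compared, each library left out, and number 3 left out. The fits without number 1 and without number 2 were added after the data had been seen. The test was checked on simulated counts drawn without an effect of the replicate number. That check does not cover deviations that libraries or genes share. Promoters are from RefSeq, build GRCm38.p6.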

Additional observations from a re-analysis of the deposited data

How the results depend on the processing

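Over 19 settings, the median log2 fold change over the 33 genes stayed above 0 between the CRX groups. Among the fits that leave out one library it lay between 0.17 and 0.39. Against control it ranged there from -0.13 to 0.32 with metatherian CRX, being below 0 without control replicate 1, control replicate 2 (-0.03) or metatherian CRX replicate 1 (-0.05) and highest without control replicate 3, and from -0.48 to 0.050 with eutherian CRX, above 0 without control replicate 3 alone. These fits called 0 of the 33 genes, beside 0.0% to 8.79% of all genes with metatherian CRX against control (highest without eutherian CRX replicate 3), 0.0% to 1.13% with eutherian CRX against control and 0.0% to 3.46% between the CRX groups. At an unadjusted p under 0.05, they gave 0 to 15 genes higher (15 without control replicate 3, beside 7.56% of all genes) and 0 to 2 lower (2 without control replicate 1, 8.37%) with metatherian CRX against control, 0 to 1 higher (1 without control replicate 3, 1.78%) and 0 to 10 lower (10 without control replicate 1, 5.79%) with eutherian CRX against control, and 0 to 17 higher between the CRX groups (0 without metatherian CRX replicate 1, 2.58%; 1 without eutherian CRX replicate 3, 10.0%; 17 without control replicate 3, 10.2%). With no replicate block, 1 gene was higher with metatherian CRX (beside 5.78% of all genes) and 1 lower with eutherian CRX (4.55%) than in control at an unadjusted p under 0.05, with 5 higher between the CRX groups (3.86%) and 0 of the 33 called. Over all genes, the calls went from 0.0297% and 0.604% in the comparisons of metatherian and eutherian CRX with control to 0.0%. Without the libraries numbered 3, 14 genes were called (11.1% of all genes called higher) and 20 were unadjusted higher (17.5%) with metatherian CRX than in control (median 0.34), 1 was unadjusted higher (5.94%) and 2 lower (10.5%) with eutherian CRX (median 0.014), and 14 were called (12.8%) and 19 unadjusted higher (19.6%) between the CRX groups. Without those numbered 1, unadjusted higher counts were 0 (2.36% of all genes) for metatherian CRX against control and 1 (1.06%) between the CRX groups, and without those numbered 2 they were 0 (4.03%) and 3 (2.33%). DESeq2 called 1 gene (3.14% of all genes called in either direction) between the CRX groups, with 8 unadjusted higher (8.86%), and the fit of the 6 libraries compared had 15 unadjusted higher (6.21%). The cause of these shifts was not tested. For the 17 genes described in every library, of 969 log2 fold changes under the alternatives, 68 changed sign, 19 passed the threshold that the value with all libraries missed, 18 of them without the libraries numbered 3, and 0 passed it in the opposite direction.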
